A study of Caenorhabditis elegans with 2 samples.

Results

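Among the places on the autosomes where tagged TBX-2 was recovered from first-stage larvae, 1305 lay in the promoter of exactly 1 protein-coding gene. These single-gene promoter peaks were chosen by position alone: the peak summit had to fall between 1000 bp upstream and 200 bp downstream of a transcript start of 1 protein-coding gene, inside no other gene's such window, and farther than 200 bp from any tRNA, snRNA or snoRNA gene. They made up 37.1% of the 3517 autosomal peaks (95% exact Clopper-Pearson interval 35.5 to 38.7%) of the authors' list of 4384 peaks, and they stood at 1211 genes. The study carried out chromatin immunoprecipitation and sequencing (ChIP-seq) on whole Caenorhabditis elegans hermaphrodites of strain OP159, genotype unc-119(ed3) III; wgIs159, with an antibody against GFP. The wgIs159 insertion, present in both samples, gives a TBX-2 protein that carries GFP and FLAG at its C-terminus. The larvae were synchronized by starvation after bleaching and collected 6 h afterwards. There were 2 biological replicates of this 1 group and no second condition, so the comparisons below are between kinds of peak and between places within a peak.

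TBX-2 belongs to the T-box family of transcription factors, which bind DNA through a conserved domain that reads variants of the sequence GGTGTGA. In the worm it is known for its part in making the anterior pharyngeal muscles of the embryo, and it is known chiefly as a repressor of transcription. A promoter holds the sites at which general and gene-specific factors meet, and worm promoters often serve 1 gene on each side of an intergenic stretch, which is why peaks with 1 gene in reach were set apart from peaks with several. Many worm messages are trans-spliced, so an annotated start can lie downstream of the place where transcription begins.

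The sequences below show what the finding of short words at summits rests on. Each is a summit base with 50 bases on either side, taken from the WBcel235 (ce11) genome of RefSeq and read 5′ to 3′ on the strand of the gene, and none touches an annotated exon. Capitals mark the motif for which the peak is shown, and the first pair is in lower case throughout because these are the strongest such peaks and were chosen for strength alone. The peaks are at rpl-3 (chrIII:3867520-3867620, plus strand), a large-subunit ribosomal protein gene, and cdc-48.1 (chrII:10563521-10563621, minus strand), an AAA ATPase that extracts ubiquitylated proteins. A T-box site is marked at lgg-2 (chrIV:10936142-10936242, minus strand), an LC3-type autophagy gene, tlp-1 (chrIV:13704191-13704291, minus strand), a zinc finger gene of tail development, and sop-2 (chrII:12339316-12339416, plus strand), a Polycomb-type regulator of Hox genes. A GA repeat is marked at hsp-1 (chrIV:17278508-17278608, plus strand), a constitutive Hsp70 chaperone. The 8-base word CTGCGTCT or its complement AGACGCAG is marked at ntl-11 (chrIV:15471567-15471667, minus strand) and C34C12.8 (chrIII:3460209-3460309, plus strand). GC boxes are marked at tbx-2 (chrIII:5136348-5136448, minus strand), E-boxes at gly-5 (chrIII:13187920-13188020, plus strand), a glycosyltransferase gene, and an E2F core at scc-2 (chrII:255295-255395, minus strand), the cohesin loader.
rpl-3: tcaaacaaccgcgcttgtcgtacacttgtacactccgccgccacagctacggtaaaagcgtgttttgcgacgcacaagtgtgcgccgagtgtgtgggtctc
cdc-48.1: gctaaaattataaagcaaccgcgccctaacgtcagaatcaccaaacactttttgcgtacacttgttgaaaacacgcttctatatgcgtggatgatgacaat
lgg-2: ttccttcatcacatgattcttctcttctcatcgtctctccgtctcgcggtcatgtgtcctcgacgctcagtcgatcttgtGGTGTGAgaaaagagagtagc
tlp-1: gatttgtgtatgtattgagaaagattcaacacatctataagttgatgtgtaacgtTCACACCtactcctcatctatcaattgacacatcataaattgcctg
sop-2: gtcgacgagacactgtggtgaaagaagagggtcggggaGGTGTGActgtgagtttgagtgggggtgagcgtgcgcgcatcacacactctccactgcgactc
hsp-1: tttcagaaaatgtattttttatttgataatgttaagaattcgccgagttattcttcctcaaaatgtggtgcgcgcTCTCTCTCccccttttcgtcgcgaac
ntl-11: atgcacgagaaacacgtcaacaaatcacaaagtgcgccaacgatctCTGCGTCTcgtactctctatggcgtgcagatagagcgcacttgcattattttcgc
C34C12.8: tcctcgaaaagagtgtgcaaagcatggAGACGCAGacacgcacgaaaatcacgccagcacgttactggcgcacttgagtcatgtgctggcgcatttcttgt
tbx-2: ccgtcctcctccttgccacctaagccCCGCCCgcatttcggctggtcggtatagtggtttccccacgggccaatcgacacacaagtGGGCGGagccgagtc
gly-5: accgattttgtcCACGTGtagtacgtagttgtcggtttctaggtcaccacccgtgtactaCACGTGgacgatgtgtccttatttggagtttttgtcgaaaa
scc-2: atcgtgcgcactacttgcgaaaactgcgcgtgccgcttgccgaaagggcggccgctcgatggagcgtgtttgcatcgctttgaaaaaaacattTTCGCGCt

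Motifs were sought in either orientation up to 50 bp from the summit. They were compared with equally wide windows lying 300 bp farther upstream on the gene's strand, and the test was an exact two-sided McNemar test over the 1305 peaks with Benjamini-Hochberg adjustment over 18 motifs. Of the 18 motifs, 8 (44.4%) were more frequent at the summit than in the flank and 4 (22.2%) were less frequent at an adjusted p under 0.05. Peaks are not replicates of one another, so these p-values cover the counting of peaks only. In all, 69 of the peaks (5.29%) had another summit of the list within 350 bp, so that some flanks reach into a neighbouring peak.

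The T-box site GGTGTGA was rare but more frequent at summits. It was present at 18 summits (1.38%, interval 0.819 to 2.17%) and in 5 flanks (0.383%), a ratio of 3.6 (adjusted exact p = 0.0191). Windows placed 239 bp upstream of the start of each of the 17242 autosomal protein-coding genes, the median position of these peaks, held it in 0.708% of cases. The call was lost in 6 of 13 alternative settings, among them the flank on the downstream side (ratio 1.80, adjusted exact p = 0.233), promoters of 500 bp (ratio 1.71, adjusted exact p = 0.497) and the peaks of replicate 1 alone (ratio 2.43, adjusted exact p = 0.0787). The shorter T-box word AGGTGT, which can overlap both the T-box site and the E-box CAGGTG, was at 48 summits (3.68%) and in 28 flanks (2.15%), with an adjusted exact p of 0.0434, against 2.95% of all promoter windows. Its call was kept in 5 of 13 settings, and with windows of 100 bp either side its ratio was 0.918.

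The 18 peaks with a T-box site ranged over the whole of the list. The strongest was the lgg-2 peak shown above, with a pooled signal of 940, and signals of 373 in replicate 1 and 572 in replicate 2. The signal is the strength given by the authors' peak caller, on a scale that is not stated. The scpl-3 peak followed with 479, then tlp-1 with 417, Y39G8B.2 with 254 and sop-2 with 242. These peaks did not stand out for strength: their median signal was 128, and that of the peaks with no site was 149. The weakest included unc-62, a TALE homeobox gene, with 79.4, and mml-1, the Mondo-type helix-loop-helix gene, with 77.1. Other holders were aipl-1, an actin-filament disassembly gene, with 212, tpa-1, a protein kinase C gene, with 147, din-1, a nuclear receptor corepressor, with 140, and cla-1, an active zone protein of synapses, with 95.6. Of the 18 sites, 7 read as GGTGTGA and 11 as TCACACC on the strand of the gene.

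A GA repeat, GAGAGA or TCTCTC, was the most frequent of the motifs called higher. It was present at 357 summits (27.4%, interval 24.95 to 29.9%) and in 77 flanks (5.90%), a ratio of 4.64 (adjusted exact p = 1.62e-48), against 6.38% of all promoter windows. On the strand of the gene it read as TCTCTC at 234 summits and as GAGAGA at 139, with both at 16. It was spread widely around the summit, with 8.35% of peaks in the 20 bp bin centred 30 bp downstream and 1.23% in the bin centred 290 bp upstream. Peaks with the repeat had a median signal of 145 and those without it 150. All 13 alternative settings kept the call, with ratios of 3.49 to 6.34.

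The word CTGCGTCT had the highest ratio of the 18 motifs. It was present at 183 summits (14.02%, interval 12.2 to 16.03%) and in 10 flanks (0.766%), a ratio of 18.3 (adjusted exact p = 4.64e-42). All promoter windows held it in 1.00% of cases. It read as CTGCGTCT on the gene's strand at 119 of the summits and as AGACGCAG at 65, and 1 summit had both. Its position was narrow: 4.44% of peaks held it in the 20 bp just upstream of the summit, 0.460% in the bin 90 bp upstream and 0.153% in the bin 290 bp upstream. The strongest holder was the W06H8.6 peak, with a pooled signal of 958, and 353 in replicate 1 and 602 in replicate 2. The median signal was 150 with the word and 149 without it. The call was kept in all 13 settings, with ratios from 12.9 upward.

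Further sites known from other factors were also more frequent at summits. The GC box CCGCCC, bound by Sp1-type zinc finger proteins in mammals, was at 95 summits (7.28%) and in 24 flanks (1.84%; adjusted exact p = 6.69e-11). The E-box CACGTG, bound by helix-loop-helix leucine zipper proteins, was at 88 summits (6.74%) and in 35 flanks (2.68%; adjusted exact p = 4.04e-06). Both calls were kept in all 13 settings. The E2F core GCGCGAA was at 42 summits (3.22%) and in 10 flanks (0.766%; adjusted exact p = 7.44e-06), and peaks with it had a median signal of 183 against 147 without it. With windows of 25 bp its adjusted exact p was 0.0556. The CRE TGACGTCA, a site of bZIP proteins, was at 14 summits (1.07%) and in 4 flanks (0.307%; adjusted exact p = 0.0463), a call kept in 6 of 13 settings.

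The motifs that were less frequent at summits were rich in A and T. The TATA word TATAAA was at 54 summits (4.14%) and in 158 flanks (12.1%; adjusted exact p = 4.29e-13). The GATA word TGATAA, read by the GATA factors of the worm intestine and skin, was at 74 summits (5.67%) and in 136 flanks (10.4%; adjusted exact p = 2.25e-05), a call that was lost with windows of 100 bp (adjusted exact p = 0.0990). The splice acceptor word TTTCAG was at 78 summits (5.98%) and in 243 flanks (18.6%), and a run of 8 T at 56 summits (4.29%) and in 173 flanks (13.3%). The remaining 6 motifs did not pass the threshold with the flank 300 bp upstream: the E-box CAGGTG, the E-box CAACTG, the CCAAT box, the NK-2 site CACTTNA, the CSL site GTGGGAA and the forkhead site TGTTTAC. Forkhead sites stood at 40 summits (3.07%) and in 24 flanks (1.84%; adjusted exact p = 0.0830). They passed with the flank 500 bp upstream (ratio 3.64, adjusted exact p = 1.14e-04), the flank 300 bp downstream (2.86, adjusted exact p = 0.00107) and windows of 100 bp (1.69, adjusted exact p = 0.0320). The CCAAT box passed as lower at summits with the flank 300 bp downstream (ratio 0.805, adjusted exact p = 0.0249) and the flank 500 bp upstream (0.789, adjusted exact p = 0.0112).

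**Figure D1:**
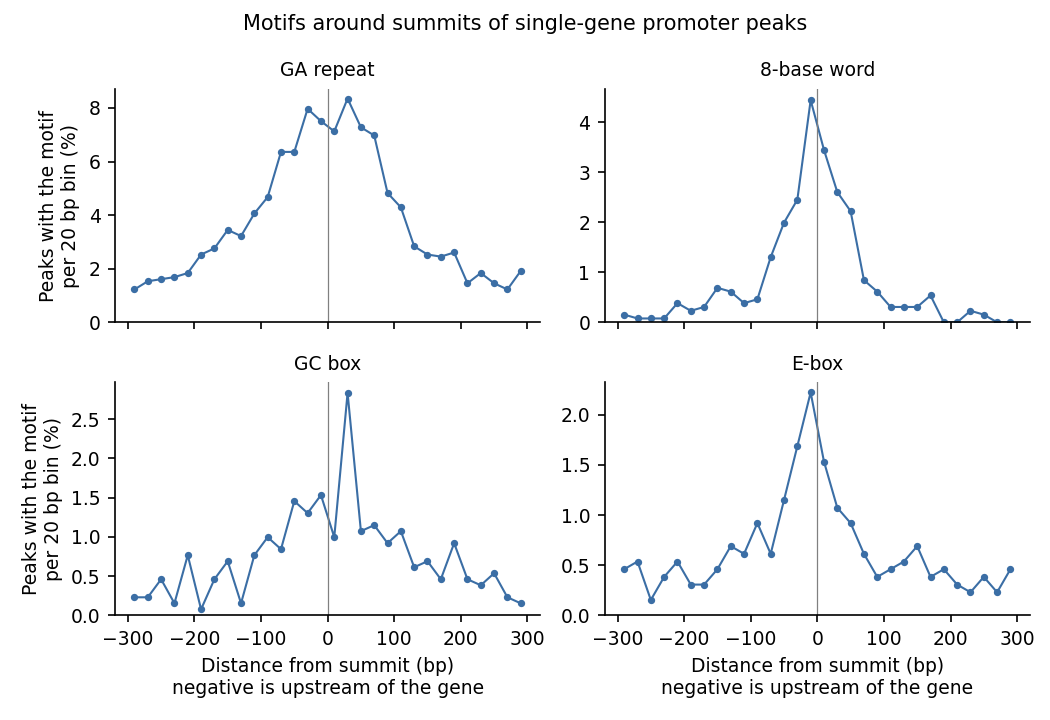
Share of single-gene promoter peaks that hold each motif (y axis, percent per 20 bp bin) by distance from the summit (x axis, bp, negative upstream of the gene). The 8-base word reaches 4.44% just upstream of the summit, while the GA repeat stays between 7.13 and 8.35% in the 4 bins nearest to it.

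Base composition moved with the words. The summit windows had 45.98% G and C, the upstream flanks 34.5%, the downstream flanks 36.5% and all promoter windows 34.1%. Of all 2080 words of 6 bases, 512 (24.6%) were more frequent at summits and 416 (20.0%) less frequent. Of the 512 words, 357 had 4 or more G or C, and of the 416 words 360 had 2 or fewer. The part of base composition in the motif counts was not tested. The word with the smallest p was CGTCTC, at 295 summits (22.6%) and in 37 flanks (2.84%; adjusted exact p = 1.10e-52). It can overlap CTGCGTCT, as can the second word, ACGCAG, at 246 summits (18.9%) and in 23 flanks (1.76%). Among the less frequent words the smallest p was that of AAAATT, at 236 summits (18.1%) and in 548 flanks (41.99%; adjusted exact p = 1.20e-37).

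Set against other autosomal peaks, single-gene promoter peaks held GA repeats less often than intronic or intergenic peaks and more often than peaks in shared promoters. The comparison took the 728 peaks in the promoters of several genes, the 478 intronic peaks outside promoters and the 767 intergenic peaks, with two-sided Fisher exact tests adjusted over 54 tests, of which 3 (5.56%) were higher and 4 (7.41%) lower in single-gene promoters. The GA repeat was at 27.4% of single-gene promoter summits, 17.3% of shared ones (adjusted exact p = 6.21e-06), 34.3% of intronic ones (adjusted exact p = 0.0395) and 41.5% of intergenic ones (adjusted exact p = 2.78e-09). The difference from intronic peaks was lost in 4 settings, among them the peaks of replicate 1 alone (adjusted exact p = 0.287). CTGCGTCT was at 14.02% of single-gene promoter summits and 7.28% of shared ones (adjusted exact p = 6.07e-05), and CACGTG at 6.74 and 2.75% (adjusted exact p = 0.00102). The CACGTG difference was lost with promoters of 2000 bp (adjusted exact p = 0.127). TGATAA was at 5.67% of single-gene promoter summits and 10.3% of intergenic ones (adjusted exact p = 0.00179), a difference lost among the stronger 50% of the list (adjusted exact p = 0.370). CCAAT was at 15.2% of single-gene promoter summits and 20.9% of intronic ones (adjusted exact p = 0.0395), which was lost in 9 settings. For the T-box site, 1.38% of single-gene promoter summits compared with 0.412% of shared ones (adjusted exact p = 0.171), 1.05% of intronic ones (adjusted exact p = 0.922) and 0.522% of intergenic ones (adjusted exact p = 0.252). The shared-promoter difference passed with the peaks of replicate 1 alone (adjusted exact p = 0.0424). The G and C content of the summit windows was close in the 4 classes, 45.98% in single-gene promoters, 45.7% in shared promoters, 45.2% in introns and 45.2% between genes.

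**Figure D2:**
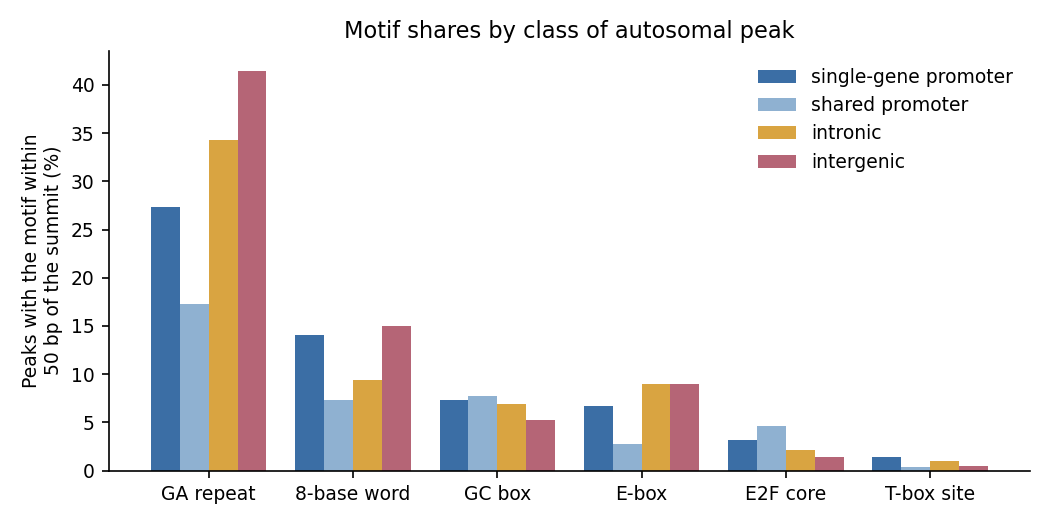
Share of autosomal peaks with each motif within 50 bp of the summit (y axis, percent), by class of peak. The GA repeat bar is 27.4% in single-gene promoters, between 17.3% in shared promoters and 41.5% in intergenic peaks.

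Single-gene promoter peaks were of middle strength. Their pooled signal had a median of 149 (quartiles 102 and 262, range 76.8 to 1894), against 198 in shared promoters, 123 in introns and 128 between genes. Of the single-gene promoter peaks, 51.6% were in the stronger 50% of the list, compared with 50.7% of all autosomal peaks. Of the 6 comparisons of strength and recovery, 4 (66.7%) were higher and 2 (33.3%) lower in single-gene promoters. The share in the stronger part was lower than the 66.8% of shared promoters (Fisher's exact test adjusted over 6 tests, p = 1.76e-10) and higher than the 39.3% of introns (adjusted exact p = 1.05e-05) and the 40.7% of intergenic peaks (adjusted exact p = 5.10e-06). Recovery ran the same way: 80.5% of single-gene promoter peaks lay within 100 bp of one of the strongest 4384 regions in both replicates, against 80.6% of all autosomal peaks. The share was 87.9% in shared promoters (adjusted exact p = 2.79e-05), 74.3% in introns (adjusted exact p = 0.00581) and 76.4% between genes (adjusted exact p = 0.0293). Among the stronger 50% of the list none of the 3 differences in recovery passed the threshold (adjusted exact p between 0.130 and 0.769). The list was itself thresholded for agreement between these replicates and its signal pools them. High recovery is therefore partly built in, and recovery is not a measure independent of strength.

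The 15 single-gene promoter peaks with the highest mean rank in the replicates had pooled signals between 867 and 1894. The rpl-3 peak, 284 bp upstream of its start, ranked first of the whole list with a pooled signal of 1894, and had 679 in replicate 1 and 1215 in replicate 2. The cdc-48.1 peak, 164 bp upstream, had a pooled signal of 1506, with 526 in replicate 1 and 989 in replicate 2. The rpl-35 peak, 450 bp upstream of another large-subunit ribosomal gene, had 1477, with 539 in replicate 1 and 932 in replicate 2. None of these held a full T-box site, and the rpl-35 peak held the shorter T-box word. Next came cox-5A, a cytochrome c oxidase subunit, with 1202, tos-1 with 1111, ints-4, an Integrator subunit, with 1046, eelo-2 with 1044 and W06H8.6 with 958. The remaining 7 were lgg-2 with 940, pcn-1, the replication clamp PCNA, with 935, tbx-2 itself with 925, ztf-7 with 884, cbp-1, the CBP/p300 acetyltransferase, with 879, his-37, a histone H4 gene, with 867, and sqd-1, an hnRNP gene, with 867.

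The tbx-2 gene had peaks in its own promoter. The stronger one, 102 bp upstream of the start, had signals of 391 in replicate 1 and 519 in replicate 2, and held a GC box and a CCAAT word but no T-box site. The animals carry tbx-2 also in the transgene, so reads from added copies and from the gene itself cannot be told apart here. Leaving out every peak within 20000 bp of the tbx-2 start, a choice made after seeing the data, took away 3 of the single-gene promoter peaks and left the number of motifs called higher at 8.

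**Figure D3:**
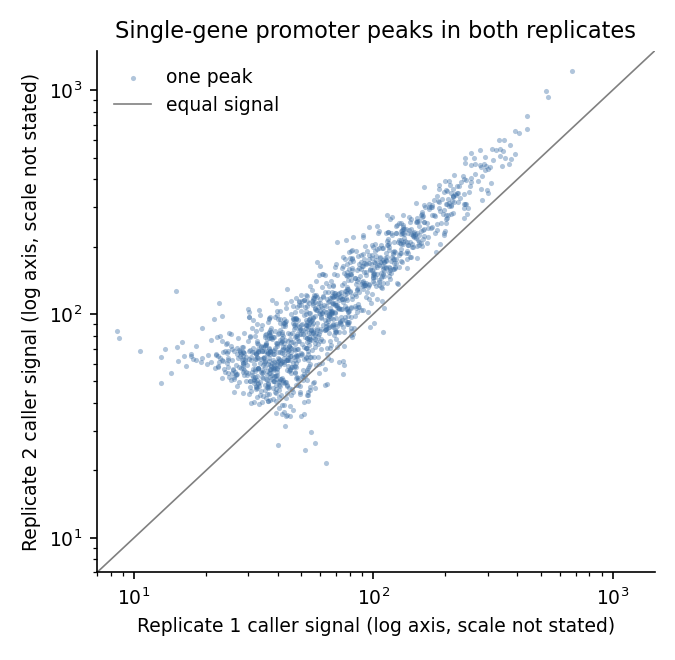
Caller signal of each single-gene promoter peak found in both replicate lists, replicate 1 on the x axis and replicate 2 on the y axis, both on log axes. Of the 1266 peaks, 1211 lie above the line of equal signal, and the spread is widest at low signal.

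Most of these peaks were found in both replicates, from which the list itself was made. Of the 1305 peaks, 1266 had a region within 100 bp in both replicate lists of 30000 regions, 31 had none in replicate 1 and 9 none in replicate 2. The median signal was 58.2 in replicate 1 and 94.4 in replicate 2. The ratio of replicate 2 to replicate 1 had a median of 1.61 (quartiles 1.36 and 1.94), and replicate 2 was higher at 1211 of the 1266. Across these peaks, which share libraries and were chosen from a list made from both, Spearman's rho was 0.859, given as a description. The 6 peaks whose rank differed most all had low signal in replicate 1. The zak-1 peak, 850 bp upstream of a mixed-lineage kinase gene, had 8.46 in replicate 1 and 83.8 in replicate 2. The tos-1 peak 303 bp upstream had 14.9 in replicate 1 and 126 in replicate 2, and it lies within the same region as the stronger tos-1 peak. The others were at gldi-2 (8.62 in replicate 1 and 78.4 in replicate 2), adh-1 (10.5 and 68.5), F32B5.7 (13.0 and 64.2) and str-176 (13.5 and 70.0).

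Summits gathered a short way upstream of the start. The median summit lay 239 bp upstream of the nearest start (quartiles -442 and -123 bp), 93.6% were upstream and 54.7% lay 1 to 300 bp upstream. The rule limits these positions to the window, so they are given as a description. Measured from the most upstream start of each gene the median was 180 bp upstream, since 592 of the 1211 genes have several starts. For 15 peaks the nearest start lay outside the window, which another start of the same gene provided. By place, 955 summits were between genes (73.2%), 277 inside the assigned gene, 37 inside another gene on the opposite strand and 36 inside another gene on the same strand. Peaks between genes had a median signal of 158 and those inside the assigned gene 125.

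**Figure D4:**
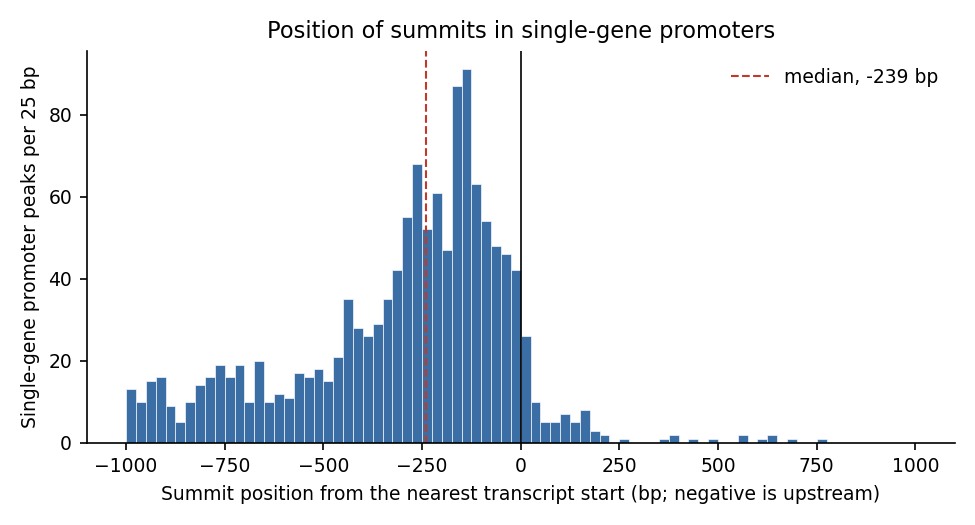
Number of single-gene promoter peaks (y axis) per 25 bp bin of summit position relative to the nearest transcript start (x axis, bp, negative upstream). The dashed line is the median, 239 bp upstream, and few summits lie downstream of the start.

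Motif shares were also counted by stretch of the promoter, with no test of the differences. The GA repeat was at 34.4% of the 276 summits more than 500 bp upstream, 28.6% of those over 300 and up to 500 bp upstream, 23.3% of those over 200 and up to 300 bp upstream, 20.1% of those over 100 and up to 200 bp upstream, 30.5% of those 1 to 100 bp upstream and 31.9% of the 69 at the start or up to 200 bp downstream. CTGCGTCT was at 16.7, 13.9, 9.75, 11.5, 20.0 and 13.04% of the same 6 groups. CACGTG ranged between 3.46 and 8.33%, and the GC box between 4.35% in the downstream group and 10.2% over 200 and up to 300 bp upstream. Recovery in both replicates was 77.9% in the farthest group and 84.7% in the nearest upstream one, and 71.0% in the downstream group.

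The limits of the rule fell among both weak and strong peaks. Just inside the upstream limit stood hil-1, a linker histone gene, at 997 bp with a signal of 83.2, and rhy-1 at 995 bp with 113. Just outside were peaks 1001 bp from egl-27, with 136, and 1005 bp from K11D2.4, with 486. Inside the downstream limit were F33G12.6 at 192 bp, with 121, and T05C7.9 at 190 bp, with 109, and outside it cka-1 at 203 bp, with 84.4, and nhr-88 at 211 bp, with 95.3. On the RNA gene limit, W06H8.6 stood 207 bp away with 958 and zip-2 246 bp away with 345, while etr-1 at 133 bp had 80.1 and fbxl-1 at 131 bp had 291. The RNA gene rule set aside 63 summits that had 1 gene's promoter. The weakest peak of the list was itself a single-gene promoter peak, at arx-5, with 76.8.

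Of the 17242 autosomal protein-coding genes, 1211 (7.02%) had a single-gene promoter peak, and 22 of 29 gene lists had a higher share. The lists were set by gene name, which can miss genes of the same kind, and no test was run on them. A further 1433 of all 17242 genes had a peak only in a promoter shared with another gene, and the shares do not count these. They included 1 body wall muscle gene and 4 synaptic and pan-neuronal genes. Among body wall muscle genes 15 of 47 had a single-gene promoter peak (31.9%, exact interval 19.1 to 47.1%), with a median signal of 94.9 against 154 over all 1211 genes. The strongest was at cpn-3, a calponin, with 477. Then came the actin gene act-2 with 171, unc-45, a myosin chaperone, with 124, unc-112, kindlin, with 112, and sca-1, the calcium pump of the sarcoplasmic reticulum, with 100.9. The actin genes act-1 (96.5) and act-3 (89.2) also had peaks. Their coding sequences are near-identical to that of act-2, while the summits at act-1, act-3 and act-2 lay 428, 280 and 422 bp upstream. Whether reads at these summits could be told apart was not tested. The structural genes unc-15 (paramyosin, 94.9), lev-11 (tropomyosin, 91.0) and unc-89 (obscurin, 77.3), and hlh-1, the MyoD homologue, at 93.0, were near the weak end of the list. The count of body wall muscle genes was 11 with the peaks of replicate 2 alone, 13 with those of replicate 1 alone, 14 with promoters of 500 bp, 17 with promoters of 2000 bp and 2 among the stronger 50% of the list.

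Synaptic and pan-neuronal genes had peaks at 16 of 54 (29.6%, interval 17.98 to 43.6%), with a median signal of 170. The strongest was at unc-108, a Rab2 gene, with 465, followed by unc-76, an axon growth gene, with 422 and maco-1, macoilin, with 245. Further members were tom-1, tomosyn, with 180, snb-1, synaptobrevin, with 170, snt-4, a synaptotagmin, with 141, and rab-3 with 117. GA repeats were at the strongest peak of 9 of these 16 genes, against 332 of all 1211 genes. High shares were not limited to this list. Nuclear hormone receptors had 13 of 24, helix-loop-helix genes 3 of 6, chaperones 3 of 6, and F-box, BATH and MATH genes 3 of 5. Other lists had low shares, among them body wall muscle genes with 2 of 15 and cytoplasmic ribosomal proteins with 4 of 21. These lists were picked after their values were seen, and the differences were not tested. The count of synaptic and pan-neuronal genes was 25 with promoters of 2000 bp and 9 among the stronger 50% of the list.

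Of 25 genes on the list of pharynx muscle and its regulators, 3 had a peak (12%), and the interval of 2.55 to 31.2% includes the 7.02% over all genes. They were tbx-2 with 925, the NK-2 homeobox gene ceh-22 with 139, and the pharyngeal myosin gene myo-1 with 81.98. The ceh-22 summit lay 156 bp downstream of the start. Among the 18 autosomal T-box genes tbx-2 was the single one with such a peak (5.56%). The interval of 0.141 to 27.3% includes the 7.02% over all genes, and reads from the transgene cannot be told apart at tbx-2.

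The lists of growth and housekeeping genes had shares between 2.94% and 27.5%, from histones, 2 of 68, to nuclear pore and transport genes. Cytoplasmic ribosomal proteins had 21 of 79 (26.6%, median signal 239). A further 46 of them had a peak only in a promoter shared with another gene, as had 1433 of all 17242 genes. In the other lists of growth and housekeeping genes this number lay between 10 (ubiquitin and SUMO) and 24 (translation factors and tRNA ligases). Nuclear pore and transport genes had 11 of 40 (27.5%), led by imb-3, an importin beta, with 502, npp-8 with 440.8 and ima-2, an importin alpha, with 382. The list of chromatin modifiers had 13 of 66 (19.7%) with a median of 323. On it the strongest were set-4, a histone H4 methyltransferase, with 567 and chd-7, a chromodomain helicase, with 479. The acetyltransferase gene cbp-1, whose peak had 879, was not on this list, which was set by gene name. Translation factors and tRNA ligases had 13 of 68 (19.1%), led by the initiation factor genes eif-3.C with 849 and eif-3.B with 845. Proteasome subunits had 7 of 33 (21.2%), oxidative phosphorylation genes 7 of 35 (20.0%), cell cycle and replication genes 10 of 60 (16.7%), vesicle sorting, Rab and V-ATPase genes 14 of 76 (18.4%) and ubiquitin and SUMO genes 11 of 68 (16.2%). The shares were 9 of 56 (16.1%) for RNA polymerase II, Mediator and Integrator genes, 7 of 57 (12.3%) for splicing and RNA-binding motif genes, 6 of 54 (11.1%) for chaperones and 7 of 70 (10%) for mitochondrial ribosomal proteins, and the intervals of the last 3 include 7.02%. Several counts depended on the promoter length: with promoters of 2000 bp they were 11 for cytoplasmic ribosomal proteins, 4 for mitochondrial ribosomal proteins, 4 for oxidative phosphorylation, 4 for cell cycle and replication and 5 for RNA polymerase II, Mediator and Integrator. No GA repeat was at the strongest peak of the 7 oxidative phosphorylation and 11 nuclear pore and transport genes, against 332 of all 1211 genes with one. Translation factors and tRNA ligases had 1 of 13. These lists were picked from the 29, and the difference was not tested.

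The share with a peak lay between 9.76 and 23.5% in 6 lists of developmental regulators, against 7.02% over all genes. A further 4 nuclear hormone receptor, 2 homeobox and 2 helix-loop-helix genes had a peak only in a shared promoter. For Wnt pathway, TGF-beta and insulin signalling and heterochronic genes the numbers were 1, 3 and 2. Among all 17242 genes it was 1433, so the comparison with 7.02% depends on leaving such genes out. The exact intervals of nuclear hormone receptors (6.35 to 14.2%) and homeobox genes (4.66 to 21.9%) include 7.02%. So do those of heterochronic genes (6.81 to 49.9%) and of TGF-beta and insulin signalling genes (3.51 to 29.0%). Wnt pathway genes had 6 of 28 (21.4%), namely wrm-1 and sys-1, which are beta-catenins, with 367 and 192, the kinase gene lit-1 with 173, dsh-2, a Dishevelled, with 130, pop-1, the TCF factor, with 95.8, and the receptor gene cam-1 with 93.3. Helix-loop-helix genes had 6 of 31 (19.4%), among them hlh-11 with 560, hlh-30, the TFEB homologue, with 295, and hif-1 with 236. The list of homeobox genes had 7 of 62 (11.3%), including the Hox genes lin-39 with 260, mab-5 with 107 and ceh-13 with 98.6, and the Hox cofactor ceh-20 with 273. The TALE homeobox gene unc-62, whose peak had 79.4, was not on this list. Nuclear hormone receptors had 24 of 246 (9.76%), with weak peaks (median 116) led by nhr-49 with 305. The heterochronic genes lin-66 with 407, lin-28 with 375, pash-1, the DGCR8 partner of Drosha, with 323, and alg-2, an Argonaute, with 91.4 made 4 of 17 (23.5%). TGF-beta and insulin signalling genes had 4 of 32 (12.5%). With promoters of 500 bp the counts were 3 Wnt pathway genes and 3 homeobox genes.

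**Figure D5:**
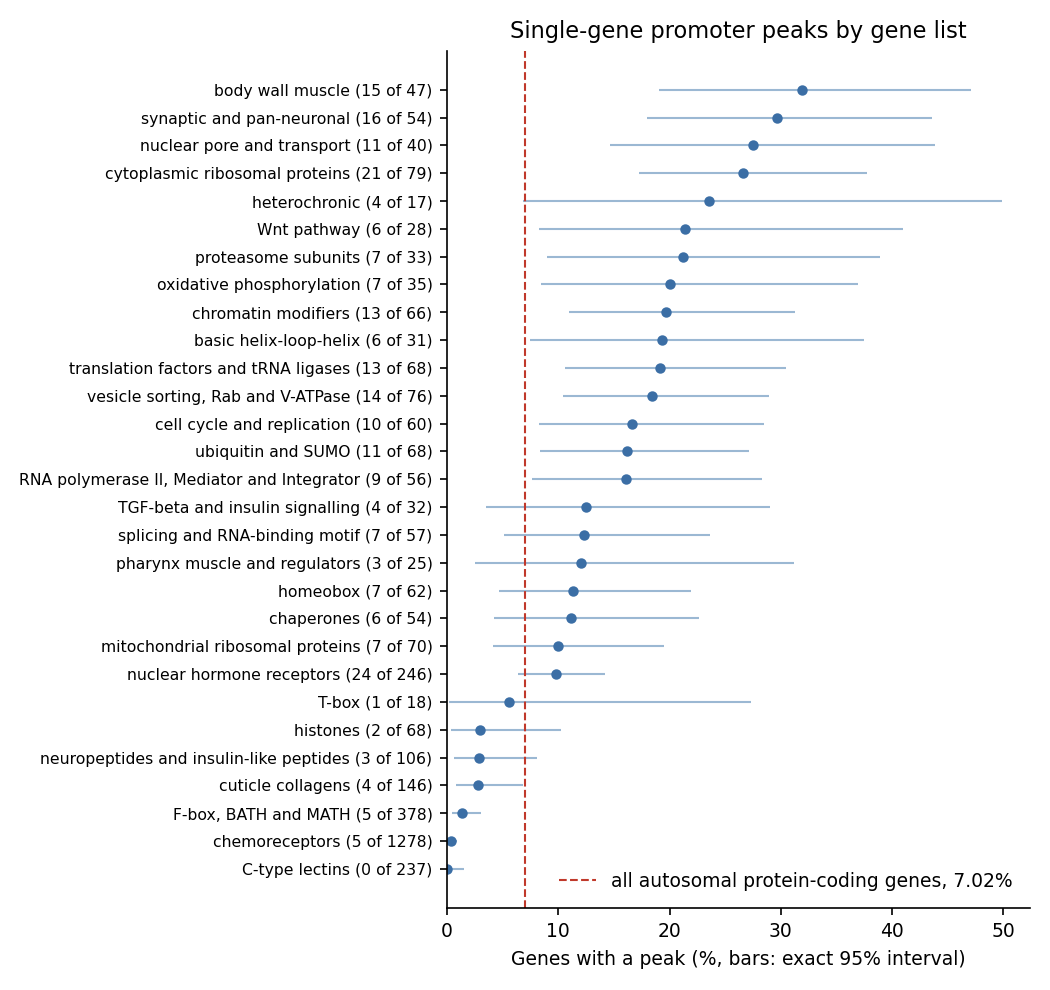
Share of the autosomal protein-coding genes of each list that had a single-gene promoter peak (x axis, percent, with exact 95% intervals). The dashed line is the share over all 17242 genes, 7.02%, and C-type lectins at 0 of 237 stand at the bottom.

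The large families of chemoreceptor, F-box and lectin genes had few such peaks. Of 1278 chemoreceptor genes 5 had such a peak (0.391%, interval 0.127 to 0.911%), of which srh-2 was the strongest with 638. Of 378 F-box, BATH and MATH genes 5 had one (1.32%), with fbxb-72 strongest at 208, and of 237 C-type lectins none (upper limit of the interval 1.54%). Cuticle collagens had 4 of 146 (2.74%), histones 2 of 68 (2.94%), and neuropeptide and insulin-like genes 3 of 106 (2.83%). The linker histone gene hil-1, which also had such a peak, was not on the histone list. The intervals of histones (0.358 to 10.2%) and of neuropeptide and insulin-like genes (0.588 to 8.05%) include the 7.02% over all genes. A further 12 histone, 9 cuticle collagen and 4 neuropeptide and insulin-like genes had a peak only in a shared promoter. With promoters of 500 bp the counts were 1 for chemoreceptors and 2 for cuticle collagens, and with promoters of 2000 bp 3 for F-box, BATH and MATH genes, 2 for C-type lectins and 0 for histones. Many members of these families stand in tandem clusters, and repeated sequence limits how reads are placed there. The effect of this on the counts was not tested.

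Most genes had 1 such peak, 79 had 2, 6 had 3 and kin-1 had 4. The kin-1 gene, the catalytic subunit of protein kinase A, had summits 265, 159 and 63 bp upstream and 41 bp downstream of its nearest starts, with signals of 237, 102, 84.2 and 112. The gsa-1 gene, the stimulatory G protein alpha subunit, had 3, with signals of 378, 233 and 96.4, and the lgg-2, scpl-3 and Y65A5A.2 genes had 3 each. Of all single-gene promoter peaks, 64 (4.90%) had a region that overlapped another of the list. Across the autosomes, genes of chromosome III had the highest share with a peak (9.02%) and those of chromosome V the lowest (5.05%). Of the peaks, 43.9% lay in the middle one of 3 equal parts of their chromosome, against 38.1% of autosomal protein-coding genes.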

How the data were processed

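ChIP-seq of GFP-tagged TBX-2 in first-stage larvae was deposited as peak lists for 2 biological replicates and for both pooled. Per the file headers and notes deposited with the samples, each replicate list and the pooled list holds 30000 regions, peaks and background together, prepared for an analysis of irreproducible discovery rate (IDR), and a further list of 4384 peaks is thresholded by IDR. The aligner, peak caller and IDR threshold are not given in the sources used here. Signal in the deposited lists is the authors' caller strength on an unstated scale, used only to rank and describe. The deposited significance, a −log10 q-value, equals 4.01 for every IDR peak and could not rank them. Sequencing depth is unknown, and intervals cover the counting of peaks only.

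Summits on ce11, counted from 1, were placed on Ensembl release 115 gene models for WBcel235, and sequences came from the RefSeq genome of that assembly. Regions of different lists were matched within 100 bp. Classes of peak were compared by two-sided Fisher exact tests and summits with flanks by exact McNemar tests, with Benjamini-Hochberg adjustment and a threshold of 0.05. Intervals are 95% Clopper-Pearson. Peaks are not replicates. Python 3.11.15 with scipy 1.17.1 was used, and each test was tested on simulated data with implanted words or known shares. The simulated windows were drawn alike for both sides, so this check did not cover the difference in base composition between summits and flanks. The peaks described, gene lists, motifs and alternatives were chosen with earlier results of these data known, and name patterns of 4 lists were corrected after values had been seen, to take out genes of other families. Named genes are the 15 peaks of highest mean rank, up to 3 of the strongest per list with 5 or more such genes, the 6 of largest rank difference between replicates, 5 genes with most peaks, those nearest each limit, and the strongest holder of each motif past the threshold. Other holders of the T-box site, further list members and lists with fewer than 5 such genes were named after their values were seen. Of 1023 such peaks on chromosomes II to V, 793 had a summit window outside exons, from which the printed sequences were taken.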

Additional observations from a re-analysis of the deposited data

How the results depend on the processing

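The share of single-gene promoter peaks among autosomal peaks was 34.3% with promoters of 500 bp and 39.2% with promoters of 2000 bp, 38.9% with no RNA gene filter, 36.8% with an RNA gene distance of 500 bp, 37.8% among the stronger 50% of the peaks, and 37.2 to 37.4% when either replicate was left out. The median summit offset was -180 bp with the 500 bp promoters, -354 bp with the 2000 bp promoters and -180 bp from the most upstream start. The stronger 50% of the peaks stood at 643 genes. The recovery differences, in percentage points, were lost with 2000 bp promoters against intronic (4.38) and intergenic peaks (2.30), and in the stronger 50% against shared-promoter (-0.217), intronic (2.15) and intergenic peaks (0.242). The strength differences kept their direction and call in every setting in which they were computed. Motifs higher at the summit numbered 5 with 500 bp promoters and 5 with windows of 25 bp. Motif shares higher than in another class numbered 5 when either replicate was left out, 8 with windows of 100 bp and 5 with 1 peak a gene, and shares lower than in another class numbered 2 with 2000 bp promoters, no RNA gene filter, the stronger 50% of the peaks or windows of 25 bp, and 2 to 3 when a replicate was left out.

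Ratios of summit to flank that crossed 1 were, for CAACTG and GTGGGAA with 2000 bp promoters, 0.929 each, for GTGGGAA with windows of 25 bp 0.50, for CCAAT 1.01 and the forkhead site 0.813 in the stronger 50%, for CAGGTG 0.923 with the downstream flank, for AGGTGT 0.918 and the NK-2 site 1.33 with windows of 100 bp, and for the NK-2 site 1.02 with the downstream flank and 1.02 to 1.21 when a replicate was left out. Of these motifs AGGTGT alone had passed the threshold. The T-box site difference from intronic peaks changed sign, to -0.415 with 500 bp promoters, -0.0740 with 2000 bp promoters and -0.574 points with windows of 100 bp. The cause of these changes was not tested. Using 1 peak a gene and leaving out peaks near tbx-2 were chosen after seeing the data. No paired analysis was possible because the 2 replicates form 1 group. The unknown depth and the unstated scale of the signal limit every statement on strength.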
